A study of Homo sapiens with 4 samples.

Results

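Collagens, laminins and integrins are the main structural proteins of the extracellular matrix and the receptors that hold cells to it. The genes of these 3 families were examined in RNA-seq libraries of MDA-MB-231. This is a human cell line from a breast cancer without estrogen, progesterone or HER2 receptors, and it is known as invasive. The members are the protein-coding rows whose symbol has the form of a collagen chain (COL, number, A, number), a laminin chain (LAMA, LAMB or LAMC and a digit) or an integrin subunit (ITGA or ITGB and a digit, L, M, V or X). This rule used gene symbols and transcript types and no measured value. It gave 102 transcripts of 48 genes, namely 23 collagen, 10 laminin and 15 integrin genes, of 12120 genes with a protein-coding transcript in the table. One of the 15, ITGBL1, encodes an integrin beta-like protein that matches the rule by its symbol but is not an integrin subunit. ITGA2B, ITGAD and ITGAE have symbols outside the rule.

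Cells were treated for 24 h with DMSO, the solvent, or with 10 µM KH-3, and the labels give 2 libraries for each condition, 4 in all. KH-3 is a small molecule that interferes with the binding of HuR to mRNA. HuR is an RNA-binding protein, encoded by ELAVL1, that attaches to AU-rich stretches of many mRNAs and slows their decay. All libraries come from 1 cell line grown in culture, so no stromal or endothelial cells were part of the samples by design. The values used here are the authors' means over libraries. Which libraries enter them is not stated, so they may mix treated with untreated cells. They carry no replicate error, and no comparison of KH-3 with DMSO is given. An order of genes by level is therefore a description, and whether neighbours in that order differ beyond the spread of the libraries was not tested.

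A collagen molecule is a triple helix of alpha chains, and the families differ in what they build. Types I, III and V form fibrils, type IV forms the network of the basement membrane, and type VI forms beaded filaments around cells. Laminins are cross-shaped trimers of an alpha, a beta and a gamma chain that organise the basement membrane. Integrins are dimers of an alpha and a beta subunit in the plasma membrane, and the pairing sets the ligand, such as collagen, laminin or the RGD motif of fibronectin and vitronectin. Breast epithelium normally rests on a basement membrane of type IV collagen and laminin, and carcinoma cells must cross it to invade.

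The level of a gene is given as mean normalized reads per kb, which is the authors' mean normalized read count of each protein-coding transcript divided by its length in kb and summed over the transcripts of the gene. Depth of the single libraries is unknown. The lowest mean among the 43596 listed transcripts was 7.34 reads. Long transcripts can thus be listed at lower levels per kb than short ones. Why other transcripts have no row was not tested, so a gene without a protein-coding row is not shown to be unexpressed. Of 9 markers of this cell line and of mesenchymal-like breast cancer cells, 5 were above the median of all protein-coding genes. VIM (vimentin) was highest at 3786 mean normalized reads per kb, and AXL, a receptor kinase of mesenchymal breast cancer cells, was at 2814. ZEB1 was at 46.7, FN1 (fibronectin) at 7.35 and CDH2 (N-cadherin) at 2.49, and TWIST1 had no protein-coding row. The estrogen and progesterone receptor genes ESR1 and PGR and the E-cadherin gene CDH1 had no protein-coding row. Of the 10 luminal markers, the keratins KRT18 (3542), KRT19 (1014) and KRT8 (331) were above the same median. The other listed luminal markers were at 43.3 (EPCAM) or less, with ERBB2 (HER2) lowest at 24.1. Of the 4 basal markers EGFR was listed, at 1242, and KRT5, KRT14 and TP63 were not. None of the 4 blood cell markers and 2 of the 3 endothelial markers were listed, the latter at 4.08 mean normalized reads per kb or less. Of the 6 stromal markers, ACTA2 (74.8) and PDGFRB (20.3) were listed, and DCN, LUM, PDGFRA and FAP were not. Whether the stromal signals belong to the cancer cells was not tested.

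The sum over the 48 genes was divided very unevenly. Integrin genes held 50.5% of the summed level, laminin genes 39.0% and collagen genes 10.5%. With transcripts of every type in place of protein-coding ones, the order of the leading families turned, with 47.9% for laminin, 43.7% for integrin and 8.42% for collagen genes. ITGB1, LAMB3 and ITGA3 together held 58.4%, and they were the members above 1000 mean normalized reads per kb. The median level was 17.1 for collagen, 232 for laminin and 134 for integrin genes, against 117 over all 12120 protein-coding genes. Above that overall median were 4 of 23 collagen, 5 of 10 laminin and 9 of 15 integrin genes, so 18 of 48 members (37.5%). In reads without scaling by length, 23 of the 48 were above the median of all protein-coding genes. At or above percentile 90 of all protein-coding genes were 3 integrin genes, 1 laminin gene and 0 collagen genes. Below percentile 25 were 15 collagen, 3 laminin and 5 integrin genes. The 102 transcripts took 0.632% of all reads in protein-coding transcripts.

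**Figure D1:**
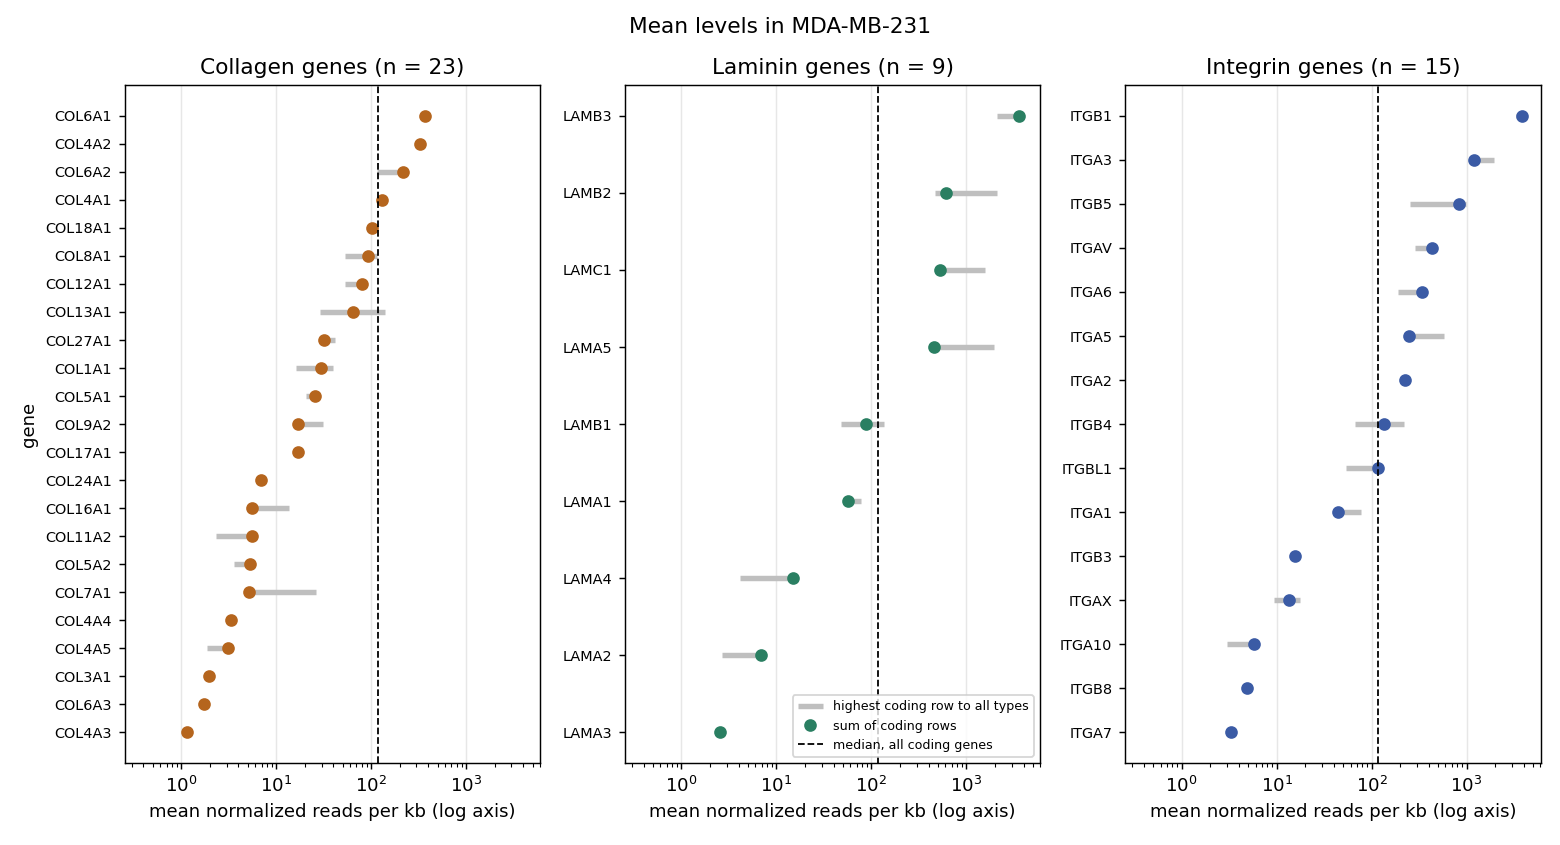
Level of 47 member genes on a log axis, in mean normalized reads per kb (points), with the overall median of 117 as a dashed line. Grey bars run from the highest single protein-coding transcript to the sum over transcripts of every type. ITGB1 (3802) and LAMB3 (3588) stand at the top, and COL4A3 (1.14) at the bottom.

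**Figure D2:**
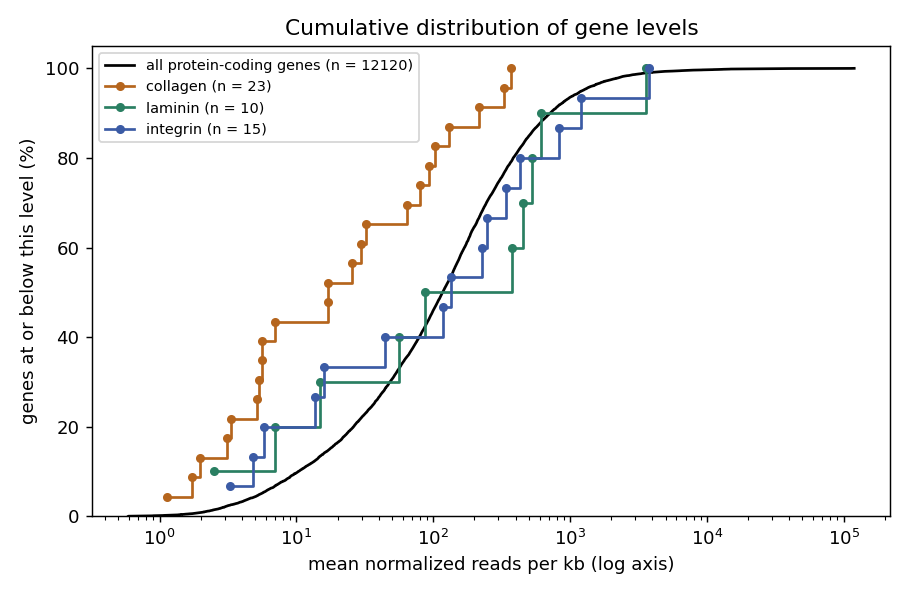
Cumulative share of genes (%) at or below a level in mean normalized reads per kb (log axis), for the 3 families and for all 12120 protein-coding genes (black). The collagen curve lies to the left of the black curve, with 4 of 23 genes above its median, and the laminin and integrin curves cross it.

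Among the collagens, beaded-filament and network chains held most of the level. Beaded-filament genes accounted for 38.0% of the collagen sum and network genes for 36.2%, against 6.91% for the 7 listed fibrillar genes. COL6A1 had the highest collagen level at 370 mean normalized reads per kb, at percentile 79.1 of all protein-coding genes. COL4A2 followed at 329, COL6A2 at 216 and COL4A1 at 130, and these 4 were the collagen genes above the overall median. Next came COL18A1 (103), which encodes the multiplexin that yields endostatin, COL8A1 (93.0), a short network collagen, COL12A1 (80.3), a fibril-associated collagen, and COL13A1 (64.8), a transmembrane collagen. COL27A1 (32.1) and COL1A1 (29.7), which code for fibrillar chains, closed the first 10. The value of COL1A1 rests for 45.1% on a transcript of 549 bases with a mean of 7.35 reads, and without it COL1A1 was at 16.3. With all transcripts under 1500 bases left out, COL1A1 took place 13 among the collagens, outside the first 10.

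Collagen chains that normally assemble with each other were listed at unequal levels. Type VI collagen commonly holds the chains of COL6A1, COL6A2 and COL6A3. COL6A3 stood at 1.72 mean normalized reads per kb, from a single transcript with a mean of 15.4 reads. The other beaded-filament genes, COL6A5 and COL6A6, had no protein-coding row. The level of COL6A2 was 126 times that of COL6A3, and that of COL6A1 was 1.71 times that of COL6A2. The main type I collagen is made of COL1A1 and COL1A2 chains, and COL1A2 had no protein-coding row here. COL5A1 stood at 25.3 and COL5A2 at 5.32 mean normalized reads per kb. For the common type IV collagen, COL4A2 was at 2.53 times the level of COL4A1.

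The other collagens were at 25.3 mean normalized reads per kb or less. COL17A1, the collagen of hemidesmosomes, was at 17.1. COL3A1, the partner of type I collagen in stromal fibrils, was at 1.98 mean normalized reads per kb, and COL7A1, the anchoring fibril chain, at 5.15. COL4A3, COL4A4 and COL4A5, whose chains form the type IV collagen of kidney and inner ear, were at 1.14, 3.31 and 3.09. COL4A3 was the lowest of all 48 members, with a mean of 9.20 reads on a transcript of 8097 bases. In the RefSeq gene table of GRCh38.p14, 44 genes fit the collagen rule, so 21 had no protein-coding row. Among these were the fibrillar genes COL1A2, COL2A1, COL5A3 and COL11A1, and COL10A1 of hypertrophic cartilage.

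The 4 collagen genes above the overall median lie in the genome as neighbouring pairs (hg38, gene bounds from GENCODE 44). COL4A1 (chr13:110148963-110307157, minus strand) and COL4A2 (chr13:110305812-110513209, plus strand) are transcribed away from each other. COL6A1 (chr21:45981770-46005050) and COL6A2 (chr21:46098112-46132848) lie on the plus strand, 93062 bases apart. COL4A3 (chr2:227164624-227314792, plus strand) and COL4A4 (chr2:227002714-227164453, minus strand) form another divergent pair, and both were among the lowest members. By the RefSeq starts, the pair COL4A1 and COL4A2 starts 127 bases apart and the pair COL4A4 and COL4A3 starts 419 bases apart. Both genes of the first divergent pair were above the overall median, COL4A1 at percentile 52.6 and COL4A2 at 76.6 of protein-coding genes. Those of the second pair were at percentile 0.223 (COL4A3) and 2.53 (COL4A4).

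Promoter windows of 300 bases from RefSeq are shown for 1 gene of each of these pairs, namely COL4A2, COL4A3 and COL6A2. They run from 250 bases before to 50 after the start (GRCh38.p14, plus strand). Capitals mark 3 motifs on either strand, which do not overlap. They are the CCAAT box, the GC box with the letters GGGCGG, and the TATA box as TATAAA. The COL4A2 window (chr13:110307034-110307333) shares 226 bases with that of COL4A1 and holds 1 CCAAT and 1 GGGCGG. The COL4A3 window (chr2:227164374-227164673) shares 82 bases with that of COL4A4, whose start lies outside it, and holds 2 GGGCGG and no CCAAT. The COL6A2 window (chr21:46097862-46098161) holds 4 GGGCGG and 1 TATAAA.
COL4A2: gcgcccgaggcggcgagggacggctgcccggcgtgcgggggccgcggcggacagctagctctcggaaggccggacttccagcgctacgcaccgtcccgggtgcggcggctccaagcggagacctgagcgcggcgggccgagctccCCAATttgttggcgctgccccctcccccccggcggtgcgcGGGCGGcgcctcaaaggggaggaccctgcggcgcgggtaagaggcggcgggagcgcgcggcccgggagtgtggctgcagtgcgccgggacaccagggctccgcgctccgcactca
COL4A3: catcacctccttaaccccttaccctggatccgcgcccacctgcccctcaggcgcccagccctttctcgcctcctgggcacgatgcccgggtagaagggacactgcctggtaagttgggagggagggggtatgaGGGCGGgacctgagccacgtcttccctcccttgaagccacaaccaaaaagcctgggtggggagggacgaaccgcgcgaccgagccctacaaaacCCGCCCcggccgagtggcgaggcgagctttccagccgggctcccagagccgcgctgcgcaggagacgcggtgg
COL6A2: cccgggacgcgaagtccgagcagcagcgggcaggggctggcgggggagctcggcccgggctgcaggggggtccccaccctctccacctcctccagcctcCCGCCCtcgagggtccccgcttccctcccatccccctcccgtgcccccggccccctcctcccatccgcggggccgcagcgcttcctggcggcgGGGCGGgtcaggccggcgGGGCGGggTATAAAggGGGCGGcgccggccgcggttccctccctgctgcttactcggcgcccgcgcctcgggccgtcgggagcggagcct

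The promoter table held 49 windows for 36 of the 48 member genes, and COL6A1 was not among them. GGGCGG was present in 69.4% of these member windows against 45.0% of all 35116 windows. CCAAT was in 20.4% against 34.6%, and TATAAA in 14.3% against 11.5%. The 35116 windows cover 27305 genes and are not limited to the 12120 protein-coding genes listed here. Windows of the same gene overlap, so these shares are descriptions only, and a match is not evidence that a factor binds.

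Among the laminins, LAMB3, LAMB2, LAMC1 and LAMA5 were above the overall median, and LAMB1 and the other alpha chains were below it. LAMB3 was at 3588 mean normalized reads per kb, the second highest level of all members and at percentile 99.0 of protein-coding genes. LAMB2 followed at 610, LAMC1 at 531 and LAMA5 at 454. LAMB1 was at 87.8, LAMA1 at 56.2, LAMA4 at 14.9, LAMA2 at 6.93 and LAMA3 at 2.52. LAMA5 held 84.9% of the level of the 5 alpha chain genes. LAMB4 and LAMC3 had no protein-coding row. A transcript of 710 bases with a mean of 410 reads gave 16.1% of the level of LAMB3. In reads instead of reads per kb, LAMB3 had a summed mean of 12621 and LAMA5 of 5187.

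Of 8 trimers compared, the chains of laminin-521 were nearest to each other. LAMA5, LAMB2 and LAMC1 lay between 454 and 610 mean normalized reads per kb, a ratio of 1.34. Laminin-511, the other broadly expressed epithelial form, contains LAMB1, which was the lowest of its chains, at 87.8. The LAMA3 and LAMB3 chains occur together in the laminin that anchors epithelial cells to the basement membrane through hemidesmosomes, and LAMB3 was at 1426 times the level of LAMA3. LAMA3 had 1 protein-coding transcript in the table, ENST00000313654.13, which is 10661 bases long and had a mean of 26.8 reads. No other protein-coding LAMA3 transcript had a row, so the ratio of LAMB3 to LAMA3 rests on this transcript alone. Whether other LAMA3 transcripts are present in these cells was not tested. LAMA1 with LAMB1 and LAMC1 makes laminin-111 of early basement membranes, and the level of LAMA5 was 8.07 times that of LAMA1. LAMA2 of muscle and nerve laminin and LAMA4 of vessel laminin were both below 15 mean normalized reads per kb.

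**Figure D3:**
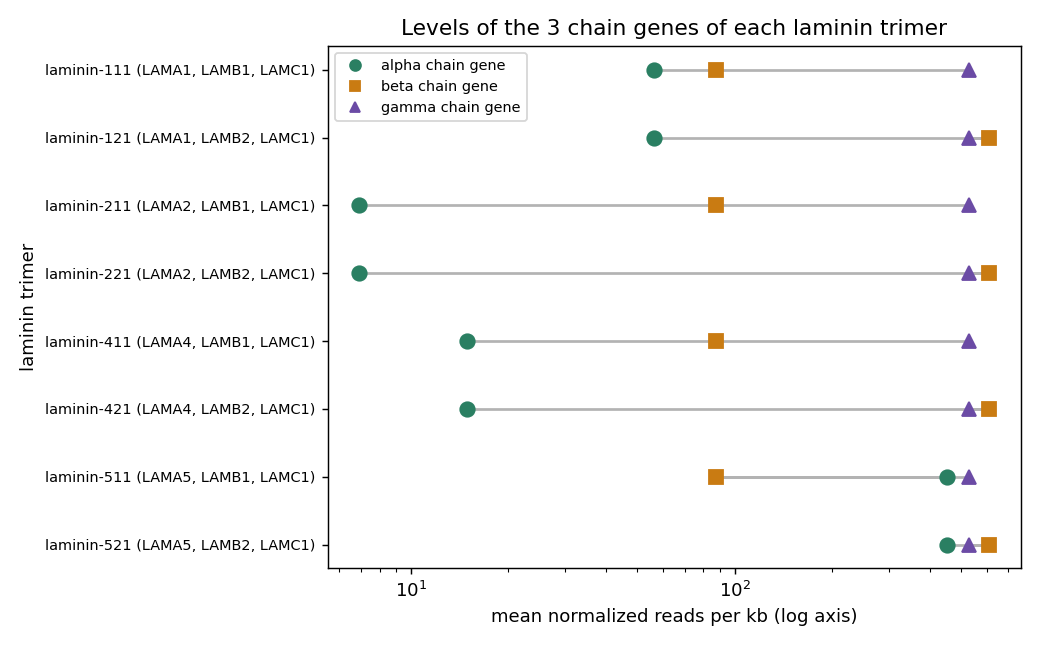
Levels of the alpha (circles), beta (squares) and gamma (triangles) chain genes of 8 laminin trimers in mean normalized reads per kb, log axis. The chains of laminin-521 lie between 454 and 610, while those of laminin-221 run from 6.93 for LAMA2 to 610 for LAMB2.

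ITGB1, the beta subunit shared by the most integrins, had the highest level of all members at 3802 mean normalized reads per kb, at percentile 99.1 of protein-coding genes. It held 79.4% of the level of the 5 listed beta genes. ITGB5 was at 832, ITGB4 at 134, ITGB3 at 15.8 and ITGB8 at 4.85. ITGB2, ITGB6 and ITGB7 had no protein-coding row. ITGB2 and ITGB7 code for leukocyte subunits and ITGB6 for an epithelial subunit.

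Of the alpha subunits, ITGA3, which pairs with the beta 1 subunit to bind laminin, was highest at 1195 mean normalized reads per kb. ITGAV (433) and ITGA5 (248) encode the subunits of RGD-binding integrins, ITGA6 (342) encodes the other main laminin-binding subunit, and ITGA2 (226) a collagen-binding subunit. ITGA1, which also binds collagen, was at 44.7, ITGA10 at 5.84 and ITGA7, the laminin-binding subunit of muscle, at 3.28. The 3 laminin-binding alpha genes held 20.8% of the integrin sum, the 2 listed RGD-binding alpha genes 9.19% and the 3 listed collagen-binding alpha genes 3.73%. ITGA3 alone made up 47.8% of the level of the 8 listed alpha genes whose subunits can pair with beta 1. ITGB1 was at 1.52 times the sum of these 8.

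Pairs other than those with ITGB1 differed in how close their levels were. ITGB4 pairs with the alpha 6 subunit in hemidesmosomes, and ITGA6 was at 2.56 times the level of ITGB4. ITGAV and ITGB5, which form a vitronectin receptor, were at 433 and 832, but the value of ITGB5 rests largely on short transcripts. Without transcripts under 1500 bases, ITGB5 was at 252 and ITGB4 at 66.5. ITGAV was at 27.4 times the level of ITGB3 and at 89.3 times that of ITGB8. ITGAX, a leukocyte subunit, was listed at 13.6 mean normalized reads per kb from 2 transcripts with means of 19.8 and 14.3 reads, while ITGAL, ITGAM and the partner gene ITGB2 had no protein-coding row. ITGBL1 was at 117, next to the overall median.

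The reads of 1 gene are divided among transcripts that overlap, so the split depends on the estimation. In 28 genes several protein-coding transcripts were listed, and in 8 of these 1 transcript held over 80% of the level. ITGB1 was almost a single transcript, with 86.9% in ENST00000302278.7, and ITGA3 with 95.7% in ENST00000320031.12. For ITGA6, ENST00000409080.5 held 55.6% and ENST00000264107.11 the rest. In LAMA4 the 4 transcripts were at 3.21 to 4.11 mean normalized reads per kb, and the highest held 27.6%. LAMA2 (39.0%), COL13A1 (45.0%) and ITGBL1 (46.1%) were likewise spread over 3 or more transcripts. In ITGB5 the full-length transcript of 4372 bases had a mean of 1103 reads and 30.3% of the level, and 5 transcripts of 548 to 1202 bases took the remainder. In ITGB4 a transcript of 688 bases with a mean of 46.3 reads held 50.3% of the level, although most reads, a mean of 254, were in ENST00000450894.7 of 5645 bases.

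**Figure D4:**
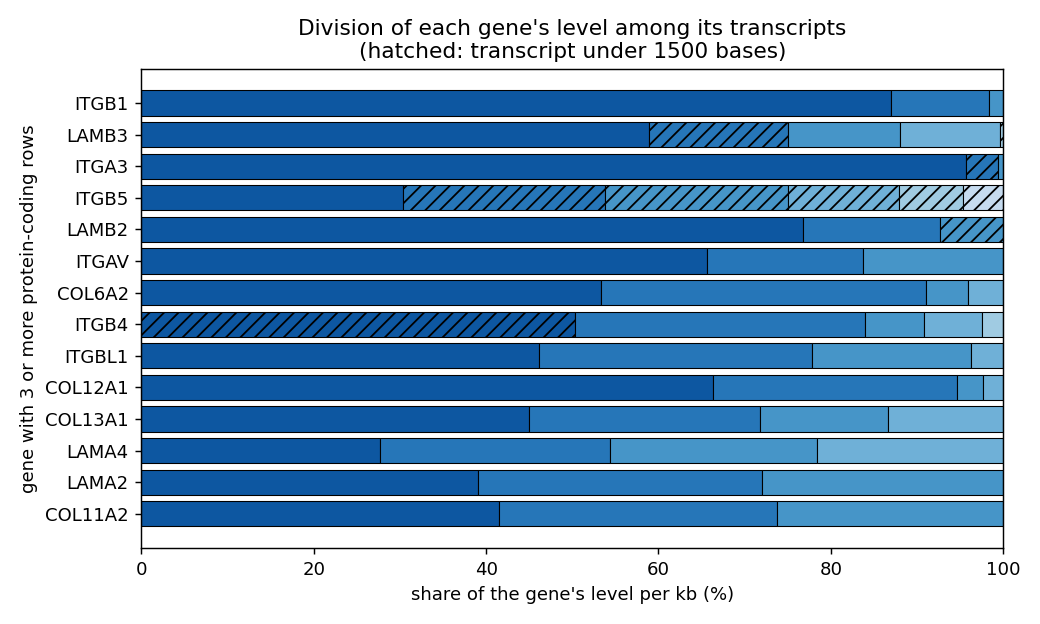
Share (%) of each gene's level, in mean normalized reads per kb, held by its protein-coding transcripts, for the members with 3 or more of them, ordered by level. Hatching marks transcripts under 1500 bases. A single transcript holds 86.9% in ITGB1 and 95.7% in ITGA3, while the 4 transcripts of LAMA4 have similar shares.

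Transcripts of other types were listed for 22 of the 48 member genes, 62 in all. Retained-intron transcripts made up 40 of them, over 15 genes, with 5990 of 7476 summed mean reads. LAMA5 had 11 transcripts of other types, with 23.4% of the reads of the gene, LAMB2 had 9 with 25.6%, ITGA3 had 7 with 30.8% and ITGA5 had 4 with 31.7%. In COL13A1 and COL7A1 they held more reads than the protein-coding transcripts, 55.0% and 52.5%. For COL4A1, COL4A2, ITGA2, ITGAV, ITGA6 and LAMB3 none was listed. With these transcripts added, LAMA5 went from 454 to 1933 mean normalized reads per kb, LAMB2 from 610 to 2108 and LAMC1 from 531 to 1580. Those of LAMB2 were 343 to 1092 bases long, those of LAMC1 672 to 782 and those of LAMA5 386 to 3160. Reads on such short transcripts weigh much per kb. Whether they are processed RNA or unspliced precursor was not tested.

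HuR is known to bind AU-rich and U-rich stretches in 3′UTRs and introns, and AUUUA is the core of the classical AU-rich element. For 44 of the 48 genes the protein-coding transcript with the most reads had a 3′UTR in GENCODE 44, which is a later release than the one the authors used, and 7 of these transcripts had the deposited length. AUUUA occurred in 32 of the 44 (72.7%), against 72.8% of 11600 protein-coding genes. The longer UAUUUAU, which contains the pentamer, occurred in 19 (43.2%) against 35.1%. It was found in 9 of 15 integrin, 8 of 19 collagen and 2 of 10 laminin genes. The median 3′UTR length was 1590 bases in integrin, 1313 in collagen and 369 in laminin genes, against 1260 in all genes. Longer 3′UTRs hold more matches by their length, and per 1000 bases of 3′UTR the number of AUUUA was 3.37, 2.61, 2.0 and 2.32 in that order. ITGA1 had 29 AUUUA in 6758 bases, ITGB8 had 26 in 5757 and ITGAV had 21 in 3609. COL6A1, COL6A2, LAMA5, LAMB2, LAMB3 and ITGB4 were among the members with none.

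One UAUUUAU site is shown for each of 5 members with high levels that hold it, since these are abundant adhesion mRNAs with the letters of an AU-rich element. Each run has 25 bases, 5′ to 3′ in the mRNA, with the heptamer in capitals. They lie at chr10:32900411-32900435 (minus strand) for ITGB1, and on the plus strand at chr17:50089305-50089329 for ITGA3, chr1:183143408-183143432 for LAMC1, chr2:186678104-186678128 for ITGAV and chr2:172504889-172504913 for ITGA6 (hg38). Binding of HuR to these sites is not analysed here.
ITGB1: uacugaaguUAUUUAUuaaauaugc
ITGA3: cuuucuuccUAUUUAUcauaaguua
LAMC1: ggaugcaauUAUUUAUaaaagucuc
ITGAV: uccaaagcaUAUUUAUuccauuguu
ITGA6: uguauauggUAUUUAUuuuuucuuu

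Genes whose products modify, link or bind these proteins were taken from lists, and the median of each list with more than 2 listed genes was above the collagen median of 17.1. Of 21 genes for collagen synthesis and crosslinking, 18 were listed with a median of 477 mean normalized reads per kb, and 10 were above the overall median. PPIB, a prolyl isomerase of the endoplasmic reticulum, was highest at 7381, P4HB, a subunit of prolyl 4-hydroxylase, was at 2601, and BMP1, which cleaves procollagen, was lowest at 9.74. P4HA3, PCOLCE and ADAMTS2 had no protein-coding row. Of the 4 basement membrane partners, AGRN (413) and HSPG2 (178) were listed, and NID1 and NID2, which link laminin to type IV collagen, were not. Of 15 integrin adaptors, 12 were listed with a median of 170, and 9 were above the overall median. VCL (vinculin) was at 1228 and TLN1 (talin, which switches integrins on) at 807, while FERMT3, the kindlin of blood cells, was at 4.34. ILK, PARVB and LIMS2 had no protein-coding row. All 8 other receptors of collagen and laminin were listed, with a median of 285 and 5 above the overall median. RPSA was highest at 6476, but it encodes a ribosomal protein as well and has many pseudogenes, so reads could be shared. The collagen receptor kinases DDR1 (2.78) and DDR2 (2.98) were at the bottom of the list.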

How the data were processed

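RNA-seq libraries were made from MDA-MB-231 cultures after 24 h in 10 µM KH-3 or in DMSO, with 2 libraries per condition. The authors mapped the reads to GENCODE v24 transcripts with STAR and estimated reads per transcript with eXpress. DESeq2 served the authors to normalize and to compare the groups. Tool versions are not given in the sources used here. The deposited table holds, for each of 43596 transcripts, a signal averaged over libraries by the authors (the mean normalized read count). Which libraries enter it is not stated, and the methods also name a 5 µM group, not analysed here. The table also holds the authors' own comparison of KH-3 with DMSO, that is a log2 fold change, a p-value and a q-value. These columns were not used. No column gives values per library, so there is no test, replicate error or depth per library.

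Levels were computed as mean normalized reads per kb of transcript, summed over the protein-coding transcripts of a gene. The laminin genes, the 10 highest and the lowest collagen and integrin genes and up to 5 genes divided among 3 or more transcripts were named by rule, and other members for their role. A member that is not reported here by name is included in the counts, medians and shares. Of the gene lists, the extremes and the unlisted genes were named by rule, except for blood cell and endothelial markers, and the rest for their role. Members and lists were chosen with earlier results of these data known. Coordinates are hg38, the build in the processing notes of the submitters. They come from GENCODE 44, matched by ID without version. The alternatives changed how transcripts are combined, the transcript types, the length (200 bases taken off, or no scaling) and the minimum (20 reads). Leaving out transcripts under 1500 bases was added after the data were seen. The level computation was tested on simulated data. Python 3.11.15, numpy 2.4.6, pandas 2.3.3 and matplotlib 3.10.9 were used.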

Additional observations from a re-analysis of the deposited data

Results flagged for a closer look

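COL9A3, a chain gene of the fibril-associated type IX collagen, was listed through a processed transcript alone, with a mean normalized read count of 7.52. It drew attention because it lies outside the protein-coding transcripts measured here. The value is close to the lowest mean listed, 7.34.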

How the results depend on the processing

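Over 6 alternatives, the 48 values for the number of members, the members above the overall median, the share of each family and the 5 highest genes of each family all stayed within 1.5 times their main value. This limit is wide. The count above the overall median ranged from 15 (minimum mean of 20 reads) to 23 (no length scaling), against 18. The number of members can fall only where transcripts are left out. The order of the families by share still turned with every transcript type, where laminin genes (47.9%) were ahead of integrin genes (43.7%), and was kept under the other 5 alternatives. Of 158 levels of single genes, 27 moved further. With the highest protein-coding transcript in place of the sum, 14 moved, among them LAMB3 (2115), ITGAV (284) and ITGB5 (252 mean normalized reads per kb). With every transcript type, 9 moved, most of all LAMA5 (1933). COL7A1 shifted most in the order, by 6 places. With transcripts under 1500 bases left out, an alternative chosen after seeing the data, 3 moved (COL1A1, ITGB4 and ITGB5), and with a minimum mean of 20 reads 1 moved (COL1A1) and 40 members remained. The limit of 1.5 times was set by choice and compares ways of processing the same means. It says nothing about the replicate spread, which is unknown. No paired analysis was possible because the table has no values per library, and for the same reason no library could be left out.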
